A study of Mus musculus with 8 samples.

Results

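The genes described here are 35 genes of cholesterol and fatty acid synthesis, chosen by symbol from the 55665 genes of the deposited tables. They comprise 25 sterol genes, 8 fatty acid genes and 2 cholesterol efflux genes, and all 35 were among the 16642 genes that passed the filter on low counts. RNA was sequenced from nTreg cells, natural regulatory T cells sorted as CD4+GFP+ from spleen and lymph nodes and then cultured ex vivo. All 4 groups carried the same background, RosaCas9/+ Foxp3gfp, in which Cas9 is expressed from the Rosa locus and a green fluorescent reporter marks Foxp3. The control guide (sgNC) groups and the Foxp3 guide (sgFoxp3) groups were each sampled at 0 h after mock treatment with DPBS, and at 3 h after T cell receptor (TCR) stimulation with antibodies to CD3 and CD28. Each group had 2 libraries. The age of the mice and the promoter behind Cas9 are not given in the sources used here. The labels do not say whether the 2 libraries of a group came from separate cultures or animals, so each p-value reflects no more than the scatter between these libraries, which could be technical. Cells with the control guide are called control cells below, and those with the Foxp3 guide targeted cells.

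Cholesterol is built from acetyl-CoA. The mevalonate steps make the isoprenoid units, squalene synthase commits them to sterols, and a chain of endoplasmic reticulum enzymes turns squalene into cholesterol. The transcription factors SREBP-1 and SREBP-2, encoded by Srebf1 and Srebf2, are carried by Scap to the Golgi when sterols are low and held back by Insig1 and Insig2 when sterols are high, and they switch on most of these genes as well as the fatty acid synthesis genes. For cholesterol, the sterol-sensing LXR receptors act in the other direction by inducing Abca1 and Abcg1, the transporters that export it. Activated T cells need membrane lipid to grow, and mevalonate metabolites are known to matter for regulatory T cell function.

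The libraries held 38729009 to 94807362 expected counts. Levels within a gene are given in CPM, counts scaled to the library size. Before stimulation Foxp3, the targeted gene, averaged 769.9 ± 8.51 CPM (SD, n = 2) in control cells and 88.0 ± 0.621 in targeted cells. After stimulation the means were 676.1 ± 3.82 and 73.9 ± 3.05 CPM, so transcript remained in the targeted cells. The 10 proliferation genes summed to 725 to 765 CPM in unstimulated control cells and dropped to 150 to 157 CPM after 3 h. In targeted cells their sum was 3440 to 3470 CPM unstimulated and 805 to 835 stimulated. They therefore moved with both factors of the design, and their part in the results below was not tested. T cell and Treg markers summed to 1850 to 7520 CPM. Over all 8 libraries the markers of other cells summed to 6.23 to 8.71 CPM for CD8 T cells, 0.669 to 4.6 for B cells, 2.88 to 5.8 for myeloid cells, 0 to 1.11 for NK cells and 0.336 to 0.938 for stromal cells. No marker was at 0 in all 8 libraries. The 3 erythroid markers summed to 7.01 to 9.01 CPM with the control guide and 65.3 to 72.9 with the Foxp3 guide. Nearly all of that sum was Hba-a1, at 6.46 to 8.26 and 64.8 to 72.3 CPM, whereas Hbb-bt was at 0.388 to 0.849 CPM and Hbb-bs at 0 to 0.0612 over all libraries. The part of Hba-a1 in the results was not tested. In bulk RNA, fewer cells of a type and less RNA per cell cannot be told apart.

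Levels of different genes are compared in TPM, transcript shares that allow for gene length. At 0 h with the control guide the highest sterol genes were regulators: Srebf1 at 74.7 TPM, Srebf2 at 74.5 and Scap at 65.1. The lowest was Hsd17b7, a sterol ketoreductase, at 2.49 TPM. Idi1, the isomerase that interconverts the isoprenoid building blocks, ranked low in that group, at 7.87 TPM. At 3 h Idi1 was the highest sterol gene with both guides, at 104 TPM in control cells and 111 in targeted cells. Among the fatty acid genes Acly, which makes cytosolic acetyl-CoA from citrate, led at 0 h with 99.4 TPM (control guide) and 79.7 (Foxp3 guide). Fasn, fatty acid synthase, led at 3 h with 162 and 173 TPM. The 2 efflux genes together summed to 65.77 and 69.2 TPM in the control guide libraries at 0 h, 11.82 and 11.3 at 3 h, 28.21 and 26.82 with the Foxp3 guide at 0 h, and 1.8 and 1.68 with the Foxp3 guide at 3 h. The 4 groups did not overlap in that sum. Order between close neighbours, such as Srebf1 and Srebf2, was not tested.

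**Figure D1:**
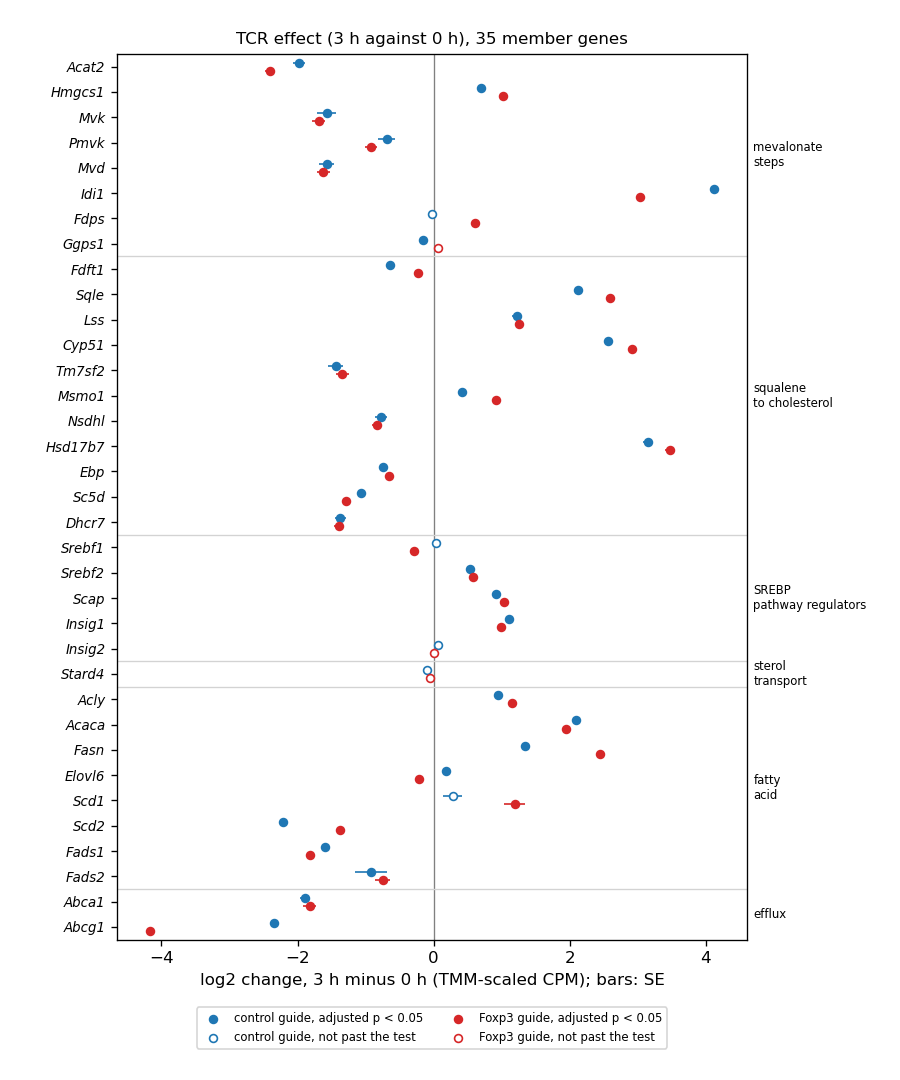
Log2 change of each of the 35 genes from 0 h to 3 h of TCR stimulation (x axis, TMM-scaled CPM), with the control guide in blue and the Foxp3 guide in red. Bars are standard errors and filled points passed an adjusted p of 0.05. Idi1, Hsd17b7, Cyp51 and Sqle lie far to the right with both guides, whereas Abcg1 lies far to the left.

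TCR stimulation split the sterol pathway. With the control guide 10 of 25 sterol genes rose and 11 fell, and with the Foxp3 guide 11 rose and 11 fell. A gene was called when its Benjamini-Hochberg adjusted p, from edgeR's quasi-likelihood test over all 16642 genes, was below 0.05. Of all genes tested, 81.8% were called with the control guide (40.9% higher and 40.9% lower) and 85.4% with the Foxp3 guide (40.8% higher and 44.5% lower). The shares of the 35 genes called, 85.7% and 91.4%, were therefore near the background, and the counts alone do not set the genes apart. The median log2 change of the sterol genes was -0.02 in control cells and 0.01 in targeted cells, beside -0.01 and -0.07 over all genes. The direction was shared between the guides for most genes: of the 35, 13 rose with both guides and 15 fell with both. How many of all genes shared their direction was not counted, so this sharing does not set the 35 apart. On the log2(TPM+1) scale the split with the control guide, 14 higher and 16 lower over the 35 genes, came to 12 and 21. Over all genes 37.3% of the calls on that scale were higher, and the median moved from -0.01 to -0.20. The move was therefore not particular to the 35 genes.

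The largest rise was that of Idi1 (ENSMUSG00000058258.14, GRCm38 chr13:8885501-8892451, plus strand). In control cells it went from 12.8 and 10.6 CPM in the 0 h libraries to 205 and 203 in the stimulated ones. In targeted cells it went from 30.3 and 31.4 CPM to 252 and 255. The groups did not overlap. The log2 change was 4.13 (SE 0.057, edgeR adjusted p = 1.4e-25), a 17.5-fold rise, with the control guide, and 3.04 (SE 0.048, edgeR adjusted p = 1.1e-24) with the Foxp3 guide. Its paralog Idi2, which lies 60411 bases downstream on the same strand, was listed at 0 counts in all 4 libraries at 0 h. At 3 h Idi2 had 745 and 729 counts with the control guide and 1219 and 2037 with the Foxp3 guide, or 11.15, 11.35, 14.64 and 14.08 TPM. Idi2 is no member of the gene set and was picked out after its values were seen. Reads shared by Idi1 and Idi2 are divided by estimation in RSEM, so how much of either value is borrowed from the other is uncertain.

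Hsd17b7 (chr1:169949535-169969241, minus strand) went from 4.85 and 5.08 CPM at 0 h to 46.5 and 41.6 after 3 h with the control guide. In targeted cells it went from 4.41 and 4.23 CPM to 49.6 and 46.7. The 0 h libraries of both guides thus lay about alike and well under those of 3 h. The log2 changes were 3.15 (SE 0.073, edgeR adjusted p = 2.2e-22) and 3.47 (SE 0.067, edgeR adjusted p = 4.1e-24). Cyp51 (chr5:4081145-4104746, minus strand), the lanosterol demethylase, went from 13.03 and 13.5 CPM to 78.9 and 77.6 with the control guide. With the Foxp3 guide it went from 17.4 and 18.5 CPM to 137 and 134, the highest of the 4 groups. The log2 changes of Cyp51 were 2.56 (SE 0.052, edgeR adjusted p = 1.4e-23) and 2.91 (SE 0.046, edgeR adjusted p = 7e-26).

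The other sterol synthesis genes that rose with both guides were Sqle (squalene epoxidase), with log2 changes of 2.12 in control cells and 2.60 in targeted cells, Lss (lanosterol synthase; 1.22 and 1.26), Hmgcs1 (HMG-CoA synthase; 0.70 and 1.02) and Msmo1 (sterol methyl oxidase; 0.42 and 0.92). The rise of Msmo1 with the control guide was not called on the TPM scale (log2 change 0.08). Other enzymes of the pathway went the other way with both guides. In the mevalonate steps, Acat2 (cytosolic thiolase) fell by 1.98 and 2.40 on the log2 scale, in control and targeted cells. Mvk (mevalonate kinase) fell by 1.57 and 1.69, Mvd (mevalonate diphosphate decarboxylase) by 1.57 and 1.62, and Pmvk (phosphomevalonate kinase) by 0.69 and 0.92. Acat2 has a close paralog, Acat3, 2289 bases away, with 3 to 60 counts a library, and reads of the pair may not be fully separable. Mvd lies within Gm20388, a protein-coding model on the other strand with a mean of 32.4 CPM. The deposited values are labelled stranded, but the strand setting of the counting is not given in the sources used here.

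Past squalene, Tm7sf2 (sterol reductase) fell by 1.44 and 1.34 on the log2 scale with the control and the Foxp3 guide, and Dhcr7 (the 7-dehydrocholesterol reductase) fell by 1.37 and 1.39. Sc5d (sterol desaturase) fell by 1.06 and 1.29, Nsdhl (sterol dehydrogenase) by 0.77 and 0.83, Ebp (sterol isomerase) by 0.74 and 0.66, and Fdft1 (squalene synthase) by 0.64 and 0.23. In consecutive steps, then, the squalene synthase transcript fell while those of the next 3 enzymes, Sqle, Lss and Cyp51, rose. Fdps (farnesyl diphosphate synthase) rose with the Foxp3 guide (0.61, SE 0.049, edgeR adjusted p = 2e-11) and stood at -0.02 (edgeR adjusted p = 0.79) with the control guide. Ggps1 (geranylgeranyl diphosphate synthase) fell by 0.15 with the control guide (edgeR adjusted p = 0.0066), a call lost without control guide 0 h library 1 (-0.12) or control guide 3 h library 2 (-0.10), and stood at 0.06 with the Foxp3 guide.

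Of the 5 regulators, 3 rose with both guides. Insig1, itself an SREBP target, rose by 1.11 in control cells and by 0.99 in targeted cells, Scap rose by 0.92 and 1.04, and Srebf2 rose by 0.54 and 0.58. Srebf1 stood at 0.04 (edgeR adjusted p = 0.35) with the control guide and fell by 0.29 with the Foxp3 guide (edgeR adjusted p = 2.7e-07). Insig2 passed in none of the 5 comparisons under edgeR, with group means from 22.45 to 23.43 CPM. The remaining sterol gene, Stard4, a cytosolic sterol carrier, was not called in either TCR comparison (-0.09 and -0.05).

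**Figure D2:**
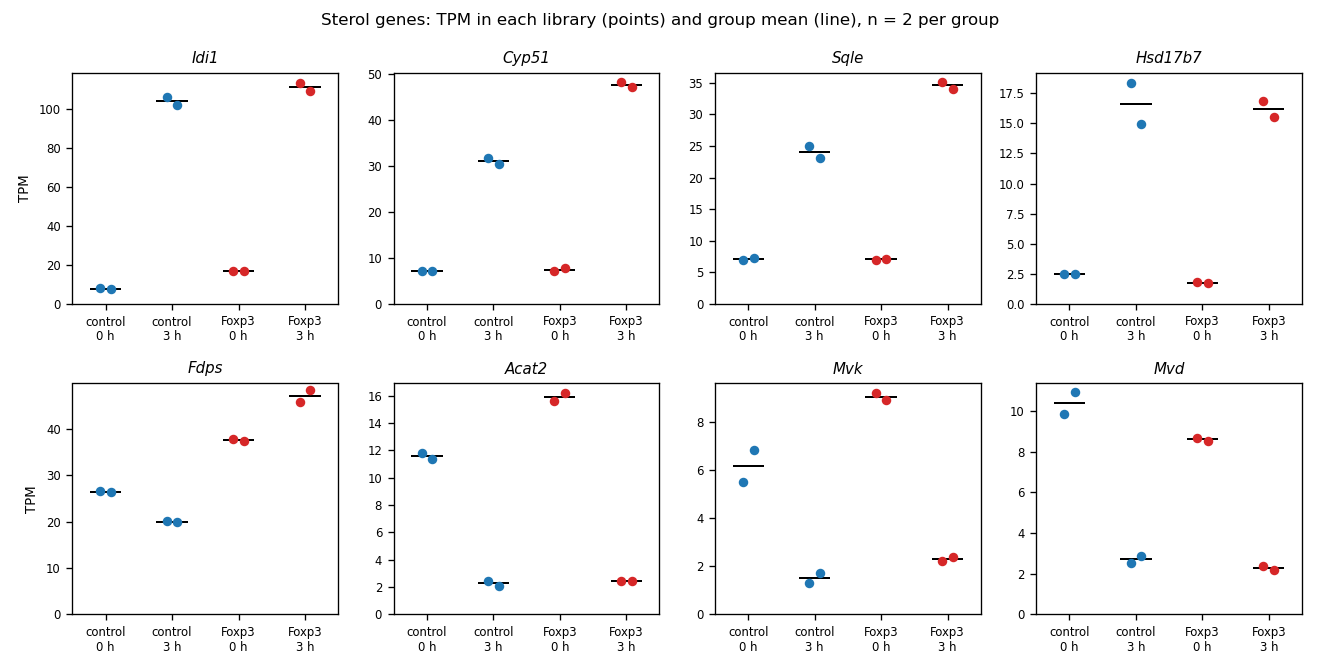
TPM (y axis) of 8 sterol genes in each library (points; blue, control guide; red, Foxp3 guide) with the group mean as a line, 2 libraries a group. Idi1, Cyp51, Sqle and Hsd17b7 are high at 3 h with both guides, whereas Acat2, Mvk and Mvd are low at 3 h, and Fdps is higher with the Foxp3 guide at both times.

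The promoters shown are those of Idi1, Hsd17b7, Mvd and Cyp51. These 4 sterol genes had the largest mean absolute log2 change over the comparisons in which they were called. With TCR stimulation 3 of them rose and the fourth, Mvd, fell. Sequences are from RefSeq's start sites on GRCm38.p6, written 5′ to 3′ on the gene's strand. Capitals mark the CCAAT box, the binding sequence of NF-Y, a factor that acts beside SREBP, or its reverse complement ATTGG. The Idi1 and Cyp51 windows fall inside the gene models of the annotation. Those of Idi1 are chr13:8885549-8885577 and chr13:8885580-8885605 on the plus strand. The others, on the minus strand, are chr1:169969242-169969455 for Hsd17b7, chr8:122443423-122443672 for Mvd and chr5:4104710-4104738 for Cyp51.
Idi1, first box: tgcctccagctgATTGGcgagcccgggca
Idi1, second box: gtccaaggtgccATTGGctggcgacc
Hsd17b7: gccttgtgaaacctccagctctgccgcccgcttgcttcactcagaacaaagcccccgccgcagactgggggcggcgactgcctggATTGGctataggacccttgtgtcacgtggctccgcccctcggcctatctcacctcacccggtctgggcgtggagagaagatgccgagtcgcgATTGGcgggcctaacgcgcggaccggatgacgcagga
Mvd: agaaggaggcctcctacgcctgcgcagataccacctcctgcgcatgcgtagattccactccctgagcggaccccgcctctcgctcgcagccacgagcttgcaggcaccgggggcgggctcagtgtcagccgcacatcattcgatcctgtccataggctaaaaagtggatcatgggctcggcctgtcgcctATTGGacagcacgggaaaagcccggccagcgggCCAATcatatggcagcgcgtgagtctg
Cyp51: cgctgtccgccaCCAATctggtcctgaga

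Promoters of 27 of the 35 genes were found in the RefSeq table, and Abcg1 was not among them. In the 250 bases before the start, on either strand, CCAAT was present in 19 of 21 sterol genes found, beside 37.5% of the 27025 genes in the table. The genes without it were Acat2, which fell with TCR stimulation, and Scap, which rose, so the box was present in both rising and falling sterol genes. It was present in 1 of 5 fatty acid genes found (Fasn) and not in the Abca1 window. The GC box GGGCGG was present in 19 of 21 sterol genes (35.4% of all genes) and the E-box CACGTG in 5 of 21 (6.86%). A strict SREBP element, TCACNCCAC, was found only in Hmgcs1 among the sterol genes (1.22% of all genes). An LXR element, AGGTCA repeated in the same direction with 4 bases between, was found in none of the windows searched (0.0148% of all genes). This strict form was present in only 5 of 32851 promoters, so its absence here says little. These searches are of short letters in one window and say nothing about binding.

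Of the 8 fatty acid genes, 4 rose and 3 fell with the control guide, and 4 rose and 4 fell with the Foxp3 guide. The first committed steps rose with both guides. Acaca (chr11:84129672-84401651, plus strand), acetyl-CoA carboxylase, went from 28.9 and 32.5 CPM at 0 h to 136 and 126 at 3 h with the control guide. Its targeted-cell values went from 31.6 and 31.9 CPM to 126 and 118, so the guides were close to each other at both times. The log2 changes were 2.09 (SE 0.054, edgeR adjusted p = 2.3e-19) and 1.94 (SE 0.051, edgeR adjusted p = 2.8e-19).

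Fasn (chr11:120805846-120824547, minus strand) went from 241 and 256 CPM to 636 and 623 with the control guide. In targeted cells it climbed from 155 and 142 CPM to 821 and 788, starting lowest and ending highest of the 4 groups. The log2 changes were 1.34 (SE 0.046, edgeR adjusted p = 1.1e-18) and 2.44 (SE 0.048, edgeR adjusted p = 6.5e-24). Acly rose by 0.95 and 1.16.

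The desaturases fell or differed between the guides. Scd2 (chr19:44293674-44306864, plus strand), a stearoyl-CoA desaturase that makes monounsaturated fatty acids, went from 159.9 and 162 CPM to 35.5 and 33.5 with the control guide. In targeted cells it dropped from 200.2 and 199 CPM to 76.3 and 76.7. Both 3 h groups lay below both 0 h groups, with log2 changes of -2.22 (SE 0.041, edgeR adjusted p = 3e-24) and -1.38 (SE 0.037, edgeR adjusted p = 3.3e-21). Fads1 (chr19:10182888-10196877, plus strand), the delta-5 desaturase of polyunsaturated fatty acids, went from 19.3 and 20.2 CPM to 6.59 and 6.56 with the control guide, and from 42.5 and 43.7 to 12.1 and 12.3 with the Foxp3 guide. The 4 groups did not overlap. Its log2 changes were -1.59 (SE 0.067, edgeR adjusted p = 5.6e-17) and -1.82 (SE 0.052, edgeR adjusted p = 1e-20). Fads2, the delta-6 desaturase and neighbour of Fads1 (81141 bases apart, opposite strands), fell by 0.92 in control cells and by 0.75 in targeted cells. The first of these values rests on 28 to 85 counts a library and came to -0.59 (edgeR adjusted p = 0.035) without control guide 3 h library 2.

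Scd1, 87590 bases from Scd2, rose by 1.19 with the Foxp3 guide (edgeR adjusted p = 6.9e-08) and stood at 0.28 (adjusted p = 0.063) with the control guide. Scd1 and Scd2 are close in sequence, and their reads may not be fully separable. Elovl6, the elongase of palmitate, rose by 0.18 with the control guide and fell by 0.21 with the Foxp3 guide. The rise was no larger than the shift between scalings: upper-quartile scaling, which moved the median of all genes from -0.01 to -0.25, gave -0.06 (adjusted p = 0.23), and the log2(TPM+1) scale, with a median of -0.20, gave 0.00. The fall lost its call without Foxp3 guide 3 h library 2 (-0.09, adjusted p = 0.15).

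Both efflux genes fell. Abcg1 (ENSMUSG00000024030.7, chr17:31057675-31117988, plus strand) went from 122 and 131 CPM at 0 h to 24.7 and 25.5 at 3 h with the control guide. With the Foxp3 guide it went from 67.4 and 66.5 CPM to 3.98 and 3.53. The log2 changes were -2.34 (SE 0.05, edgeR adjusted p = 5e-23) and -4.17 (SE 0.063, edgeR adjusted p = 3e-26), the second of these an 18-fold fall.

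Abca1 (ENSMUSG00000015243.4, chr4:53030787-53159895, minus strand) went from 38.7 and 38.8 CPM to 11.7 and 9.21 with the control guide. In targeted cells it dropped from 10.7 and 11.1 CPM to 3.04 and 3.15. The Foxp3 guide libraries at 0 h thus lay at the level of the control guide libraries at 3 h. The log2 changes were -1.89 (SE 0.076, edgeR adjusted p = 1.3e-16) and -1.82 (SE 0.094, edgeR adjusted p = 1.6e-14). In both TCR comparisons all 10 proliferation genes fell as well, with medians of -2.45 and -2.27.

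**Figure D3:**
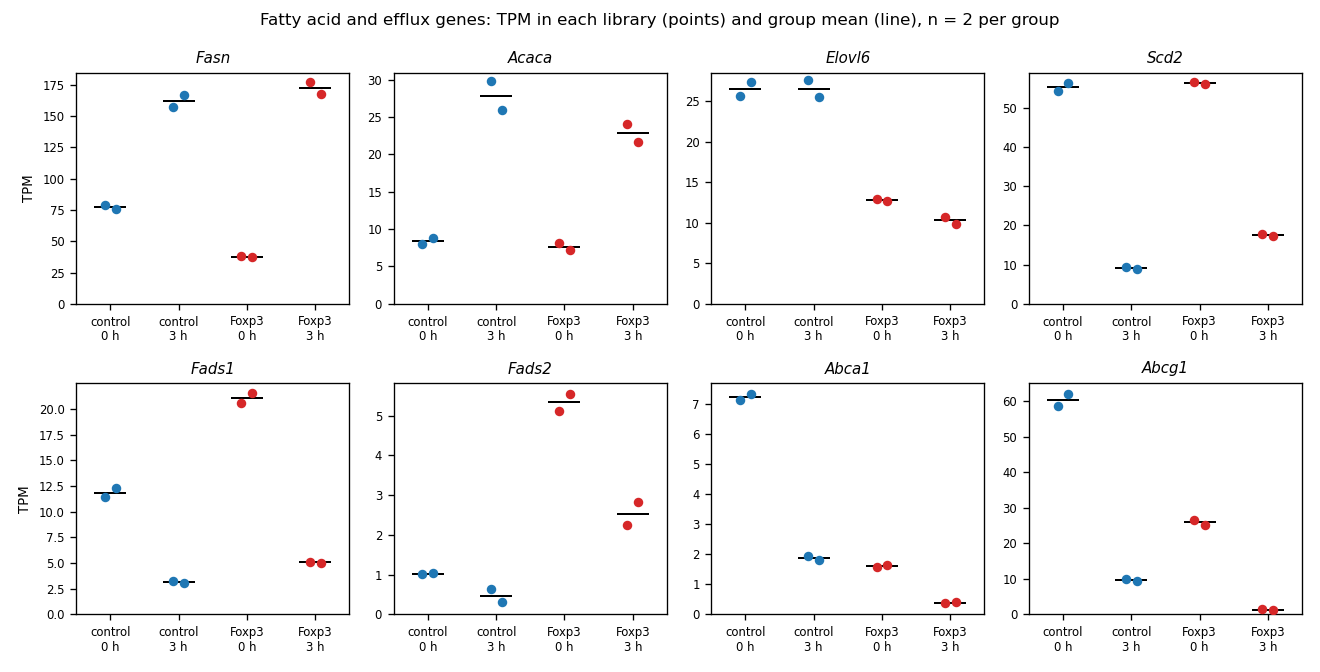
TPM (y axis) of 6 fatty acid genes and both efflux genes in each library (points; blue, control guide; red, Foxp3 guide) with the group mean as a line, 2 libraries a group. Fasn and Acaca are high at 3 h, Scd2 and Fads1 are low at 3 h, and Abca1 and Abcg1 are lowest with the Foxp3 guide at 3 h.

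The Foxp3 guide effect was then compared at each time, in libraries that the TCR comparisons also used. At 0 h 17 of the 35 genes were higher and 9 lower with the Foxp3 guide than with the control guide, and at 3 h 22 were higher and 7 lower. Over all genes 63.3% were called at 0 h (34.2% higher, 29.1% lower) and 61.5% at 3 h (30.7% higher, 30.8% lower). The higher share of the 35 was 48.6% at 0 h and 62.9% at 3 h. These shares depended on the scale. On the log2(TPM+1) scale, on which the median of all genes moved to -0.15 at 0 h and -0.12 at 3 h from 0.02 and -0.01, only 8 of the 17 and 11 of the 22 higher calls held, and the lower calls held in 9 of 9 and 6 of 7. On that scale 8 genes were higher and 16 lower at 0 h, and 11 and 9 at 3 h. The calls over all genes moved too. Of these, 27.9% were higher at 0 h and 27.4% at 3 h on that scale, beside 54.0% and 49.9% in CPM. The sterol median was 0.23 at 0 h and 0.29 at 3 h in CPM but -0.04 and 0.06 in log2(TPM+1), above the all-gene median in each case.

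The guide effect on sterol genes was led by Idi1 at 0 h, whose 2 Foxp3 guide libraries (30.3 and 31.4 CPM) lay above the control libraries (12.8 and 10.6). The log2 difference was 1.40 (SE 0.061, edgeR adjusted p = 2.7e-15). It was 0.31 at 3 h (edgeR adjusted p = 1.2e-06), a call not made on the TPM scale (0.09). Mvk stood at 4.36 and 4.79 CPM with the control guide and 8.57 and 8.42 with the Foxp3 guide at 0 h, again without overlap. Its log2 difference was 0.89 (SE 0.099, edgeR adjusted p = 2.5e-08) at 0 h and 0.77 at 3 h.

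Fdps (chr3:89093588-89101959, minus strand) stood at 15.1 and 15.3 CPM with the control guide at 0 h and 26.8 and 26.1 with the Foxp3 guide. At 3 h it stood at 15.0 and 15.0 CPM against 38.9 and 41.8, without overlap at either time. The log2 differences were 0.80 (SE 0.056, edgeR adjusted p = 5.9e-12) and 1.43 (SE 0.055, edgeR adjusted p = 6.2e-17). Stard4 stood at 41.0 and 39.2 CPM with the control guide at 3 h and at 71.2 and 72.0 with the Foxp3 guide. It differed by 0.80 at 0 h and by 0.84 (SE 0.045, edgeR adjusted p = 5e-14) at 3 h, a steady difference at both times. Cyp51 stood at 78.9 and 77.6 CPM against 137 and 134 at 3 h, a log2 difference of 0.79 (SE 0.042, edgeR adjusted p = 2.9e-14).

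Among the sterol genes, calls at both times and on both scales were made for Fdps, Mvk and Stard4, which were higher with the Foxp3 guide, and for Ggps1, which was lower. Hmgcs1, Sqle, Fdft1, Cyp51 and Ebp were higher on both scales at 3 h and only in CPM at 0 h. Pmvk, Acat2 and Idi1 were higher on both scales at 0 h and only in CPM at 3 h. The call for Acat2 at 3 h (0.31) was also lost without control guide 3 h library 2 (0.29, adjusted p = 0.061). Nsdhl, Insig1 and Srebf2 were called higher at both times in CPM alone. Lss (0.17) and Hsd17b7 (0.12) were called higher at 3 h in CPM alone. Leaving out control guide 3 h library 2 ended both of these calls, at 0.13 and 0.04, and Hsd17b7 also lost its call without Foxp3 guide 3 h library 1 (0.08), control guide 0 h library 1 (0.13) or either Foxp3 guide 0 h library (0.13), and came to 0.21 without control guide 3 h library 1 or Foxp3 guide 3 h library 2.

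Msmo1 was lower at 0 h (-0.23) and higher at 3 h (0.27), the second in CPM alone. Ggps1 was lower at both times, at -0.34 and -0.13, and the second was lost without control guide 3 h library 1 (-0.09) or Foxp3 guide 3 h library 2 (-0.07). In CPM, Scap (-0.13) and Tm7sf2 (-0.25) were lower at 0 h alone. The call for Scap was lost without control guide 0 h library 2 (-0.09) or Foxp3 guide 0 h library 2 (-0.11). That for Tm7sf2 was lost without control guide 0 h library 1 (-0.18) or either Foxp3 guide 0 h library (-0.24). Sc5d (-0.18) and Srebf1 (-0.29) were lower at 3 h. Mvd, Dhcr7 and Insig2 were called at neither time in CPM, and nor was Acaca among the fatty acid genes. Other genes were called lower on the log2(TPM+1) scale alone. At 0 h these were Dhcr7 (-0.39), Insig2 (-0.33), Hsd17b7 (-0.33), Lss (-0.32), Acly (-0.31), Mvd (-0.25) and Srebf1 (-0.20). At 3 h they were Dhcr7 (-0.28), Acaca (-0.27) and Scap (-0.18).

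**Figure D4:**
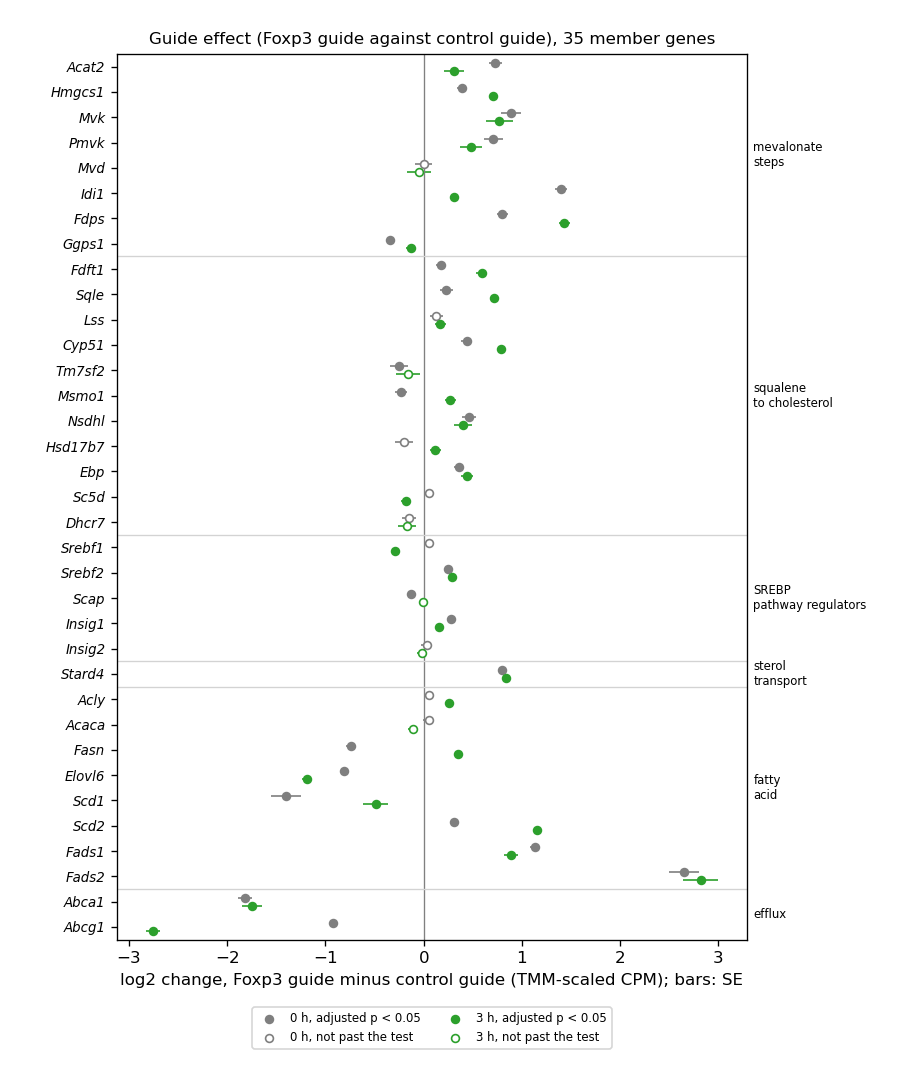
Log2 difference of each of the 35 genes between the Foxp3 guide and the control guide (x axis, TMM-scaled CPM) at 0 h in grey and at 3 h in green. Bars are standard errors and filled points passed an adjusted p of 0.05. Fads2 lies farthest to the right, Abca1 and Abcg1 lie to the left at both times, and Fasn changes side.

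The fatty acid genes differed in both directions between the guides. Fads2 (chr19:10062765-10101746, minus strand) stood at 1.70 and 1.73 CPM with the control guide and 10.3 and 11.2 with the Foxp3 guide at 0 h. At 3 h it stood at 1.13 and 0.661 CPM against 5.49 and 7.13. The log2 differences were 2.65 (SE 0.15, edgeR adjusted p = 9.1e-12) and 2.82 (SE 0.18, edgeR adjusted p = 9.2e-11), the largest positive differences among the 35 genes in CPM in both guide comparisons. At 3 h the value differed from the size of the Abcg1 change by less than its SE, and on the log2(TPM+1) scale Abcg1 changed more. Fads1 stood at 19.3 and 20.2 CPM against 42.5 and 43.7 at 0 h, without overlap. Its log2 difference was 1.13 (SE 0.05, edgeR adjusted p = 9.5e-16) at 0 h and 0.89 at 3 h.

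Scd1 stood at 1.25 and 1.34 CPM with the Foxp3 guide at 0 h, below the 3.28 and 3.55 of the control guide. The log2 difference was -1.40 (SE 0.15, edgeR adjusted p = 1.5e-08). At 3 h it was -0.49, a call not made on the TPM scale and lost without Foxp3 guide 3 h library 2 (-0.26, adjusted p = 0.18). Scd2 went the other way, at 35.5 and 33.5 CPM against 76.3 and 76.7 at 3 h. Its log2 difference was 0.31 at 0 h, in CPM alone, and 1.15 (SE 0.042, edgeR adjusted p = 2e-17) at 3 h. Elovl6 stood at 91.1 and 86.5 CPM with the control guide and 40.9 and 37.1 with the Foxp3 guide at 3 h. It was lower by both measures at both times, with log2 differences of -0.81 at 0 h and -1.19 (SE 0.048, edgeR adjusted p = 1.7e-16) at 3 h. Fasn was lower at 0 h (-0.74, edgeR adjusted p = 7.7e-13) and higher at 3 h (0.35, edgeR adjusted p = 2.6e-07), the second in CPM alone. Acly was higher at 3 h (0.26), again in CPM alone.

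Both efflux genes were lower with the Foxp3 guide at both times. Abca1 stood at 38.7 and 38.8 CPM against 10.7 and 11.1 at 0 h, and at 11.7 and 9.21 against 3.04 and 3.15 at 3 h. The log2 differences were -1.82 (SE 0.071, edgeR adjusted p = 3.4e-16) and -1.75 (SE 0.1, edgeR adjusted p = 5.9e-13), so the gap was about as wide before and after stimulation. For Abcg1 they were -0.92 (SE 0.044, edgeR adjusted p = 4.5e-15) at 0 h and -2.76 (SE 0.071, edgeR adjusted p = 2.6e-20) at 3 h. In both guide comparisons all 10 proliferation genes were higher with the Foxp3 guide, with medians of 2.41 and 2.50, and of the 3 erythroid markers Hba-a1 alone was higher in both.

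The difference between the TCR effects, Foxp3 guide minus control guide, was tested in the same model as an interaction. It was positive and past the test in 12 of the 35 genes and negative in 7, or 13 and 4 with DESeq2. Over all genes 44.8% were called, 17.8% positive and 27.0% negative, beside 34.3% and 20.0% of the 35. The negative lean over all genes depended on the processing. Of the calls over all genes 39.7% were positive here, 48.7% with upper-quartile scaling, 50.2% with DESeq2 and 51.5% on the log2(TPM+1) scale. The median was 0.04 for sterol genes and 0.19 for fatty acid genes, with -0.09 over all genes. Among the 10 proliferation genes 3 were positive and none negative.

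The negative differences were led by Abcg1 at -1.84 (SE 0.085, edgeR adjusted p = 1.1e-14), which fell with both guides and fell further with the Foxp3 guide. Idi1 followed at -1.09 (SE 0.075, edgeR adjusted p = 4.3e-11): it rose with both guides, started higher with the Foxp3 guide and ended at 252 and 255 CPM against 205 and 203. Abca1 had a difference of 0.07 (SE 0.13, edgeR adjusted p = 0.69). The other negative differences were Acat2 (-0.42), Elovl6 (-0.38), Srebf1 (-0.33), Sc5d (-0.23) and Fads1 (-0.23). With DESeq2, Acat2 (-0.36), Sc5d (-0.17) and Fads1 (-0.17) were not called. Elovl6 came to -0.24 without Foxp3 guide 3 h library 2 and Sc5d lost its call without the same library (-0.18). Fads1 lost its call, at -0.24 to -0.19, when any library other than control guide 0 h library 2 or Foxp3 guide 0 h library 1 was left out.

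The positive differences were led by Fasn at 1.10 (SE 0.064, edgeR adjusted p = 1e-12), Scd1 at 0.91 (SE 0.2, edgeR adjusted p = 0.00065) and Scd2 at 0.84 (SE 0.055, edgeR adjusted p = 7e-12). For Fasn and Scd1 the Foxp3 guide libraries were lower at 0 h and rose more. Scd1 stood at 4.40 and 3.89 CPM with the control guide and 3.37 and 2.64 with the Foxp3 guide at 3 h. For Scd2 the fall was smaller. In the sterol pathway the largest positive differences were those of Fdps, at 0.63 (SE 0.079, edgeR adjusted p = 4.7e-07), and Msmo1, at 0.50 (SE 0.08, edgeR adjusted p = 1.2e-05). Msmo1 went from 19.7 and 18.4 CPM to 26.1 and 24.5 in control cells, and from 15.8 and 16.6 CPM to 30.1 and 31.1 in targeted cells. In CPM its Foxp3 guide libraries were thus the lowest at 0 h and the highest at 3 h. Around squalene, Fdft1 (0.41), Sqle (0.48) and Cyp51 (0.35) were called with the same sign. Lss, the step between Sqle and Cyp51, was not called (0.05, edgeR adjusted p = 0.7). Hmgcs1 (0.32), Hsd17b7 (0.32), Ggps1 (0.21) and Acly (0.20) were also called positive. Hsd17b7 lost this call without control guide 0 h library 2 (0.28), control guide 3 h library 2 (0.24), Foxp3 guide 0 h library 2 (0.29) or Foxp3 guide 3 h library 1 (0.28), and was not called on the TPM scale. Ggps1 lost it without control guide 0 h library 1, control guide 3 h library 2 or Foxp3 guide 0 h library 1 (0.16 each) or Foxp3 guide 3 h library 1 (0.18). The remaining 16 genes, among them Srebf2 (0.04), Scap (0.12), Insig1 (-0.12) and Acaca (-0.15), did not pass this test.

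**Figure D5:**
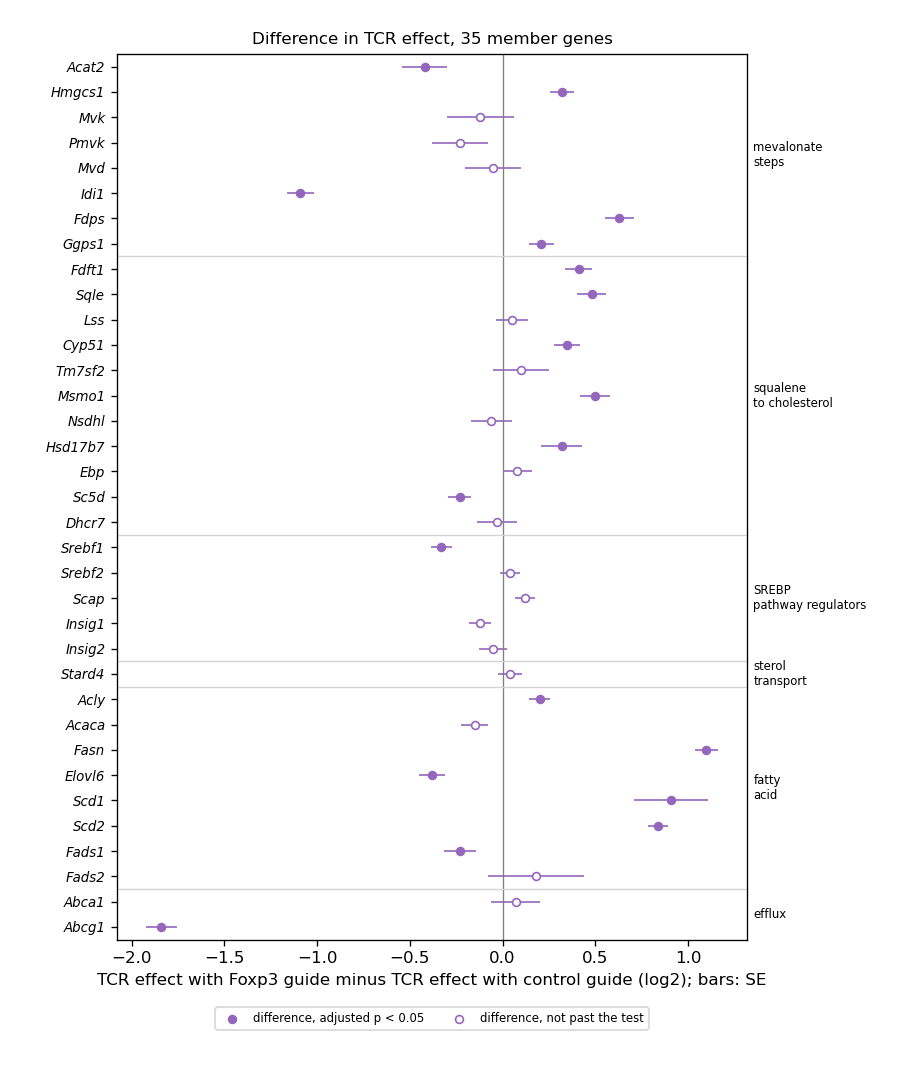
Difference of each gene's TCR effect between the guides (x axis, log2, Foxp3 guide minus control guide) for the 35 genes. Bars are standard errors and filled points passed an adjusted p of 0.05. Fasn, Scd1, Scd2 and Fdps lie to the right and Abcg1 and Idi1 to the left.

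A wider list of 42 other lipid genes, all of them tested, gave 22 higher and 19 lower with TCR stimulation and the control guide, and 24 and 17 with the Foxp3 guide. Of all genes 40.9% were higher and 40.9% lower with the control guide, and 40.8% and 44.5% with the Foxp3 guide. The largest falls were in Acss2, which makes acetyl-CoA from acetate, at -3.30 and -4.58, in Lpin1, a phosphatidate phosphatase, at -2.46 and -3.32, and in Lipa, the lysosomal acid lipase that frees cholesterol from esters, at -2.56 and -2.75. The largest rises were in Fabp5, a fatty acid binding protein (3.05 in control cells and 2.27 in targeted cells), and Gramd1b, an endoplasmic reticulum sterol transfer protein (2.47 and 3.0). Acss2 went from 28.4 and 28.6 CPM to 2.86 and 2.90 with the control guide and from 31.7 and 31.0 to 1.47 and 1.204 with the Foxp3 guide. The stimulated libraries of both guides lay far below the unstimulated ones. Of the LXR genes, Nr1h2 (LXR-beta) rose by 0.39 with the control guide and stood at 0.08 with the Foxp3 guide (edgeR adjusted p = 0.067). On the log2(TPM+1) scale these values were 0.06, not called, and -0.17, called lower. The medians of all genes on that scale were -0.20 and -0.18. Nr1h3 (LXR-alpha), with 9 to 108 counts a library, fell by 1.64 and 2.32. Mylip, another LXR target, fell by 1.68 and 2.54 on the log2 scale. The LXR targets were not examined as a set, and the part of LXR in these changes was not tested.

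Between the guides the wider list gave 23 higher and 10 lower at 0 h and 18 and 14 at 3 h, where 34.2% and 29.1% of all genes, and 30.7% and 30.8%, were higher and lower. The balance turned over on the log2(TPM+1) scale, with 8 higher and 18 lower at 0 h and 7 and 19 at 3 h. Over all genes 27.9% of the calls on that scale were higher at 0 h and 27.4% at 3 h, so the turn was not particular to this list. The largest difference was in Dgat2, which completes triglyceride synthesis, at -2.91 (SE 0.078) at 0 h and -1.95 (SE 0.067) at 3 h. It stood at 18.5 and 18 CPM against 2.42 and 2.43 at 0 h and at 25.1 and 24.9 against 6.43 and 6.51 at 3 h, so the guides did not overlap at either time. Soat1, which esterifies cholesterol for storage, was higher with the Foxp3 guide at 0.39 and 0.98, and Gramd1a, a relative of Gramd1b, at 1.16 and 0.85. Nr1h2 was lower at -0.17 and -0.47. Mylip was higher at 0 h (0.27), in CPM alone, and lower at 3 h (-0.59). The difference between the TCR effects was positive in 10 of the 42 genes and negative in 17, or 23.8% and 40.5% of them, beside 17.8% and 27.0% of all genes. On the log2(TPM+1) scale it was positive in 9 and negative in 12, and 51.5% of the calls over all genes were positive.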

How the data were processed

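RNA-seq libraries from 8 samples, in 4 groups of 2 by guide and time, were analysed. Per the submitters' processing notes, Trim Galore 0.6.3, STAR 2.7.9a and RSEM 1.3.1 were used with the mouse genome mm10 (GRCm38). The deposited values are labelled stranded, but the annotation release and the strand setting of the counting are not given in the sources used here. The authors deposited expected counts per gene, which were rounded here to whole numbers. The authors also deposited TPM values per gene, used here for levels and as an alternative scale. Every value column matched a library, with 0 left unmatched. Identifiers of 34 of the 35 genes matched GENCODE M21 with their version. Fdft1 did not and has no coordinates here.

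Genes were filtered with filterByExpr, scaled by TMM and tested with edgeR 4.0.16 (R 4.3.3) in 1 quasi-likelihood model of the 4 groups, with 4 residual degrees of freedom and a common biological coefficient of variation of 3.41%. P-values were adjusted by Benjamini-Hochberg over 16642 genes, with a threshold of 0.05. The method was tested on simulated data. CPM are TMM-scaled. Depth, from 38729009 to 94807362 counts, limits low genes such as Fads2 most. Alternatives were DESeq2 1.42.0, limma 3.58.1 on log2(TPM + a pseudocount of 1 or 0.1), other scalings, filters and thresholds, thinned libraries, a replicate block and leaving out each library. Within groups the chi-square per gene was 4.28 to 6.94, above sampling noise, so no library was counted as a repeat of another.

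The members and lists were chosen with earlier results of these data known. Full values are given for at most 3 called members with the largest changes in each class and comparison, and for the wider list the largest changes, plus the LXR genes, whose values were seen first. Some genes of these pathways are not reported here. Promoters came from the RefSeq table (GRCm38.p6).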

Additional observations from a re-analysis of the deposited data

Results flagged for a closer look

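The TCR effect differed between the guides, by the test of the difference itself in the edgeR model (Benjamini-Hochberg adjusted p below 0.05), for 19 of the 35 genes. Values are log2 changes, Foxp3 guide minus control guide. Higher values were found for 4 fatty acid genes: Fasn 1.10, Scd1 0.91, Scd2 0.84 and Acly 0.20. They were also found for 8 sterol genes: Fdps 0.63, Msmo1 0.50, Sqle 0.48, Fdft1 0.41, Cyp51 0.35, Hsd17b7 0.32, Hmgcs1 0.32 and Ggps1 0.21. Lower values were found for Abcg1 (-1.84), for the sterol genes Idi1 (-1.09), Acat2 (-0.42), Srebf1 (-0.33) and Sc5d (-0.23), and for the fatty acid genes Elovl6 (-0.38) and Fads1 (-0.23). Over all genes 44.8% passed the same test. With 2 libraries a group, single libraries could not be tested for standing apart.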

How the results depend on the processing

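Over all alternatives, members called higher and lower ranged from 8 to 17 and 7 to 16 (guide effect, 0 h), 11 to 22 and 5 to 9 (guide effect, 3 h), 12 to 15 and 15 to 21 (TCR effect, control guide), 15 to 16 and 16 to 20 (TCR effect, Foxp3 guide) and 10 to 13 and 4 to 8 (difference in TCR effect). Leaving out 1 library gave 17 and 7 to 11, 19 to 22 and 5 to 8, 14 to 15 and 15 to 17, 15 and 16 to 17, and 10 to 13 and 5 to 8 in the same order. The guide effects depended on the scale: on log2(TPM+1) and log2(TPM+0.1) 8 and 8 members were higher and 16 and 15 lower at 0 h, and 11 and 11 were higher at 3 h. Over all genes 27.9% and 27.9% of the calls on these scales were higher at 0 h, and 27.4% and 27.2% at 3 h. DESeq2 called 4 negative differences in TCR effect, against 7 with edgeR. Over all genes DESeq2 called 5871 differences, 50.2% of them positive, against 7457 and 39.7% with edgeR. The cause was not tested.

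On both TPM scales the sign turned for Sqle (-0.02), Fdft1 (-0.08) and Insig1 (-0.04) at 0 h, and for Lss (-0.12), Insig1 (-0.05) and Hsd17b7 (-0.03) at 3 h, in the guide effect. Upper-quartile scaling turned the TCR effect on Elovl6 with the control guide to -0.06, while the median of all genes moved from -0.01 to -0.25. The labels do not pair the libraries, and the correlation of deviations between same-numbered libraries was -0.076 to 0.009. With the replicate number as a block, 136 of 136 member calls kept their direction and call, with 17 higher and 9 lower at 0 h. Depth limits Fads2 (28 to 85 counts with the control guide). Where a library was left out of a group, the one that remained was assumed to vary like the other groups.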
